A study of Homo sapiens with 8 samples.

Results

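Small nucleolar RNA host genes were taken from the deposited expression table as every row whose symbol is SNHG followed by digits only, together with GAS5 and ZFAS1. The rule found 30 genes among 34415. All 30 are annotated as long non-coding RNAs in RefSeq. The cells were TeloHAEC, a human aortic endothelial line immortalised with telomerase, of wild-type genotype by the labels. There were 4 libraries of cells given estradiol and palmitic acid and 4 control libraries of cells given palmitic acid without estradiol, so all 8 libraries shared the fatty acid. The treatment field of the estradiol samples names palmitic acid only, and groups were therefore read from the sample titles. The labels give no dose or exposure time, and do not say whether replicates came from separate cultures; the p-values below therefore speak of the spread among these 8 libraries, part of which may be technical. In such bulk RNA, fewer cells of a kind and less RNA per cell cannot be told apart.

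A host gene carries small nucleolar RNAs (snoRNAs) in its introns. After splicing, the introns are trimmed to mature snoRNAs: box C/D snoRNAs guide methylation of ribosomal RNA, box H/ACA snoRNAs guide pseudouridine formation, and scaRNAs guide the same changes on spliceosomal RNAs in Cajal bodies. The spliced exons that remain are what a gene-level FPKM (a read count scaled to transcript length and library depth) mostly measures. Many host RNAs start with a terminal oligopyrimidine tract, as ribosomal protein mRNAs do, and several, GAS5 among them, are degraded by nonsense-mediated decay while ribosomes translate them. A host RNA level is therefore no direct measure of its snoRNAs, and the table held 0 rows named SNORA or SNORD followed by digits.

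In RefSeq (GRCh38.p14), 28 of the 30 spans hold at least 1 snoRNA or scaRNA gene. GAS5 holds 11, SNHG1 holds 8, and SNHG14, the imprinted transcript of the Prader-Willi region, holds 83. By the most frequent kind inside, 14 are box C/D hosts, 10 are box H/ACA hosts and 4 are scaRNA hosts, while SNHG27 and SNHG28 hold none under such names. The annotation was used here for names and neighbours only, since no source used here names the build behind the deposited values.

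The starts of 8 hosts are shown: the 6 tested hosts with a pyrimidine tract at the annotated start, and GAS5 and SNHG29, which rank among the 5 most abundant hosts and have none. Each line runs from 40 bases before to 40 bases from the RefSeq start (GRCh38.p14). Capitals mark TATAA where it lies 40 to 16 bases before the start, and the run of pyrimidines at the start where that run opens with C and has C or T at each of the next 4 positions. Only the strand that reads as the RNA does was searched.
SNHG32, chr6:31834876-31834955, plus strand: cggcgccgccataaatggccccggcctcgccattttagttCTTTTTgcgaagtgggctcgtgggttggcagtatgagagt
ZFAS1, chr20:49278602-49278681, plus strand: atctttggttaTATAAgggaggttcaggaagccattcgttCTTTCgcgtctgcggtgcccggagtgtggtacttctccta
SNHG5, chr6:85678694-85678773, minus strand: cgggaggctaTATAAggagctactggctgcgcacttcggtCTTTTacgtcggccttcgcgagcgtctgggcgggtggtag
SNHG19, chr16:2155319-2155398, minus strand: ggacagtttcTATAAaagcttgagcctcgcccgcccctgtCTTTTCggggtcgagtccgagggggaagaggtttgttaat
SNHG12, chr1:28581834-28581913, minus strand: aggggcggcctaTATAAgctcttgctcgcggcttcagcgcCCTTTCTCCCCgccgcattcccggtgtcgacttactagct
SNHG4, chr5:139274061-139274140, plus strand: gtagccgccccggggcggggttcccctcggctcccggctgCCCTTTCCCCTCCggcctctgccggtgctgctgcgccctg
GAS5, chr1:173869006-173869085, minus strand: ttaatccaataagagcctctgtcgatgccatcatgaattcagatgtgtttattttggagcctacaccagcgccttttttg
SNHG29, chr17:16438947-16439026, plus strand: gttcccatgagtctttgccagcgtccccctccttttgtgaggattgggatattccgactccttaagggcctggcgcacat

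Of 26 hosts with a promoter entry, 7 (26.9%) had the tract at the annotated start, against 4.04% of 27303 promoters and 63.8% of 69 genes of cytosolic ribosomal proteins. TATAA lay in the window for 6 hosts (23.1%), against 4.22% of all promoters and 11.6% of the ribosomal protein genes, and both features for 4 hosts (15.4%), against 0.0952% and 8.7%. SNHG7 and SNHG8 had TATAA without the tract. The 4 were ZFAS1, SNHG5, SNHG19 and SNHG12, with TATAA beginning 29, 30, 30 and 28 bases before the start. Hosts with the tract differed widely in level: SNHG32 averaged 300.4 FPKM over the 8 libraries and SNHG4, the host of SNORA74A, 1.27 FPKM, while SNHG18, whose run of pyrimidines is 21 bases long, was at or near 0. The median of the 6 tested hosts with the tract was 125 FPKM, and that of the 14 with an entry and no tract at the annotated start was 14.0 FPKM. None of the 6 lies near that median: SNHG32, ZFAS1 and SNHG5 stood at 226 to 300.4 FPKM, and SNHG19, SNHG12 and SNHG4 at 1.27 to 23.2 FPKM. Both medians leave out hosts under 1 FPKM, SNHG18 among them, so they cannot show whether tract and level go together. This was not tested. GAS5 and SNHG29, at 168 and 167 FPKM, had no tract at the RefSeq start, which speaks only of these letters in this window. SNHG15, SNHG25, SNHG6 and SNHG9 had no entry.

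Before the differences, the libraries themselves were compared. They held 33421051 to 39899258 reads recovered from the steps of the FPKM values. The first principal component of all tested genes took 68.7% of the variance and set estradiol replicate 4 and control replicate 3 apart from the other 6 libraries, so results below are also given for the other 6 libraries. Of 8 endothelial markers, 7 averaged at least 1 FPKM, with PECAM1, an endothelial adhesion molecule, at 42.0 ± 2.79 FPKM in estradiol and 42.6 ± 2.65 in control libraries (SD, n = 4 each), while EMCN was under 1 FPKM. No macrophage, fibroblast or epithelial marker of 6 each reached 1 FPKM (summed levels 0 to 0.332 FPKM per list and library), and of 6 smooth muscle markers SMTN did, with summed levels of 10.1 to 14.6 FPKM in estradiol and 9.12 to 15.3 FPKM in control libraries and DES and ACTG2 at 0.

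The host genes differed far more from each other in level than any of them did between estradiol and control libraries. By mean FPKM over the 8 libraries, 5 hosts reached 100, 10 stood between 10 and 100, 9 between 1 and 10, and 6 stayed under 1. All 30 together took 0.142% to 0.171% of the reads in estradiol libraries and 0.148% to 0.169% in control libraries. The 5 most abundant supplied 77.5 ± 0.741% of the hosts' summed FPKM with estradiol and 77.8 ± 0.621% in control (SD, n = 4 each). SNHG32 ranked 161st and SNHG29 286th among all genes of the table.

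**Figure D1:**
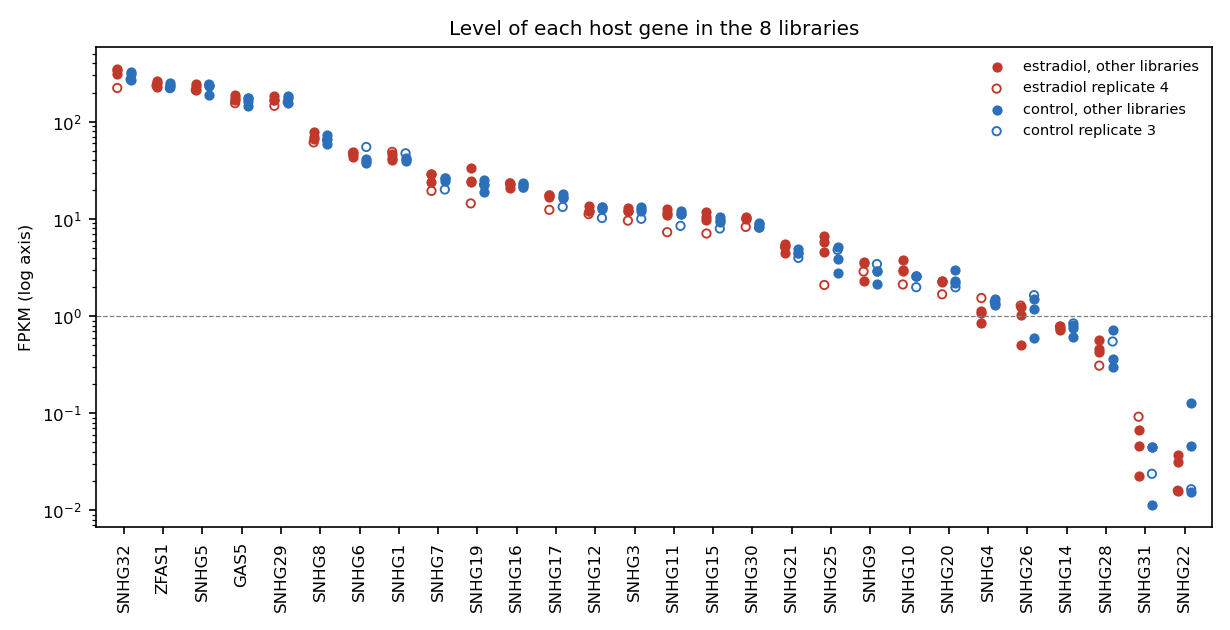
FPKM of each host gene in every library on a log axis, ordered by the mean over 8 libraries, with estradiol left and control right of each tick; open circles are estradiol replicate 4 and control replicate 3, and the dashed line marks 1 FPKM. Estradiol and control points overlap for all 28 hosts drawn; SNHG18 and SNHG27 are left out because they have libraries at 0.

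SNHG32 (formerly C6orf48), which carries SNORD48 and SNORD52 in the major histocompatibility region, was the most abundant host. Its level was 338, 351, 314 and 223 FPKM in estradiol replicates 1 to 4, against 268, 314, 273 and 323 FPKM in control replicates 1 to 4. Estradiol replicate 4 was the lowest and estradiol replicate 2 the highest of all 8, so the groups overlapped. The difference was 0.04 ± 0.15 in log2(FPKM + 1) (SE, n = 4 each; limma adjusted p = 0.999989), with a 95% interval of -0.29 to 0.37. Without estradiol replicate 4 and control replicate 3 it was 0.15 ± 0.08 (SE, n = 3 each).

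ZFAS1, which lies beside ZNFX1 and hosts the SNORD12 family, was second. It measured 252, 229, 262 and 235 FPKM in estradiol replicates 1 to 4, against 227, 241, 222 and 249.9 FPKM in control replicates 1 to 4. The libraries lay close together and the highest was 1.18 times the lowest. Estradiol minus control came to 0.06 ± 0.08 on the log2 scale (SE, n = 4 each), with a 95% interval of -0.13 to 0.24, and 0.05 ± 0.06 in the 6 libraries.

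SNHG5, the host of the U50 snoRNAs SNORD50A and SNORD50B, gave nearly equal means, 226 ± 17.5 FPKM with estradiol and 226 ± 24.1 FPKM in control (SD, n = 4 each). Its values were 233, 211, 247 and 212 FPKM in estradiol replicates 1 to 4, against 191, 231, 242 and 240.1 FPKM in control replicates 1 to 4. Control replicate 1 was the lowest library. The log2 difference was 0.00199 ± 0.10 (SE, n = 4 each), with an interval of -0.23 to 0.23, and 0.07 ± 0.09 in the 6 libraries.

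GAS5, a growth-arrest transcript with 10 SNORD genes and SNORA103 in its span, measured 166, 175, 189 and 156 FPKM in estradiol replicates 1 to 4, against 147, 177, 160.2 and 175 FPKM in control replicates 1 to 4. The lowest library was again control replicate 1 and the groups overlapped. Its log2 difference came to 0.06 ± 0.10 (SE, n = 4 each), with an interval of -0.16 to 0.28, and 0.09 ± 0.08 in the 6 libraries.

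SNHG29 (LRRC75A-AS1), host of SNORD49A, SNORD49B and SNORD65, measured 166, 167, 185 and 146 FPKM in estradiol replicates 1 to 4, against 157, 175, 159.6 and 182 FPKM in control replicates 1 to 4. Estradiol replicates held both the highest and the lowest value. The log2 difference was -0.03 ± 0.10 (SE, n = 4 each), with an interval of -0.24 to 0.19, and turned to 0.00850 ± 0.07 in the 6 libraries.

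In the order of levels, some neighbours were fully apart and others overlapped. SNHG5 and GAS5, SNHG29 and SNHG8, SNHG8 and SNHG6, SNHG1 and SNHG7, SNHG16 and SNHG17, SNHG30 and SNHG21, SNHG20 and SNHG4, and SNHG28 and SNHG31 had ranges over the 8 libraries that did not meet. SNHG17 was above SNHG12, SNHG11 above SNHG15 and SNHG14 above SNHG28 in each of the 8 libraries, although their ranges overlapped. SNHG32 was above ZFAS1 in 7 of 8 libraries and GAS5 above SNHG29 in 6 of 8, with overlapping ranges. SNHG6 and SNHG1, which carries the U22 cluster, followed at 44.9 and 43.6 FPKM and were in that order in 4 of 8 libraries.

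Between estradiol and control, none of the host genes passed the test. Of the 24 hosts with a mean of at least 1 FPKM, limma with Benjamini-Hochberg adjustment called 0 higher and 0 lower at 0.05, as it did for 0% and 0% of the 10720 genes tested. At an unadjusted p under 0.05 there were 0 hosts, against 26 genes or 0.243% of all tested. That share was 3.88% in the 6 libraries, so 0 hosts at so low a share tells little about the hosts themselves. Limma-voom on the recovered reads gave 0 called genes and 0 hosts at an unadjusted p under 0.05. Log2 fold changes ran from -0.16 for SNHG4 to 0.19 for SNHG10. Their median was 0.04, against -0.000471 over all genes tested, and 16 of 24 were above 0, against 49.5% of all genes. That count moved both ways with 1 library left out. It was 12, 11, 14 and 20 of 24 without estradiol replicates 1 to 4 in turn. Without control replicates 1 to 4 in turn it was 14, 17, 13 and 21. The medians, in the same order, were -0.00466, -0.00226, 0.02 and 0.10 for estradiol and 0.00443, 0.05, 0.02 and 0.07 for control. Every host overlapped between the groups: 0 of 24 had all estradiol libraries above all control libraries (0.308% of genes tested) and 0 had them all below (0.224%).

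The 95% intervals describe the difference between these 2 groups of libraries. Since replicates may not be separate cultures, they set no bound on an effect of estradiol in other cultures. For 23 of 24 hosts the 95% interval of the fold change stayed inside 1.5-fold up and down on the FPKM + 1 scale (98.4% of all genes tested), and for 24 of 24 inside 2-fold (99.4%). SNHG25 was the host outside the narrower bound, with an interval of -0.49 to 0.72. For hosts of a few FPKM this scale understates the change of FPKM itself.

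**Figure D2:**
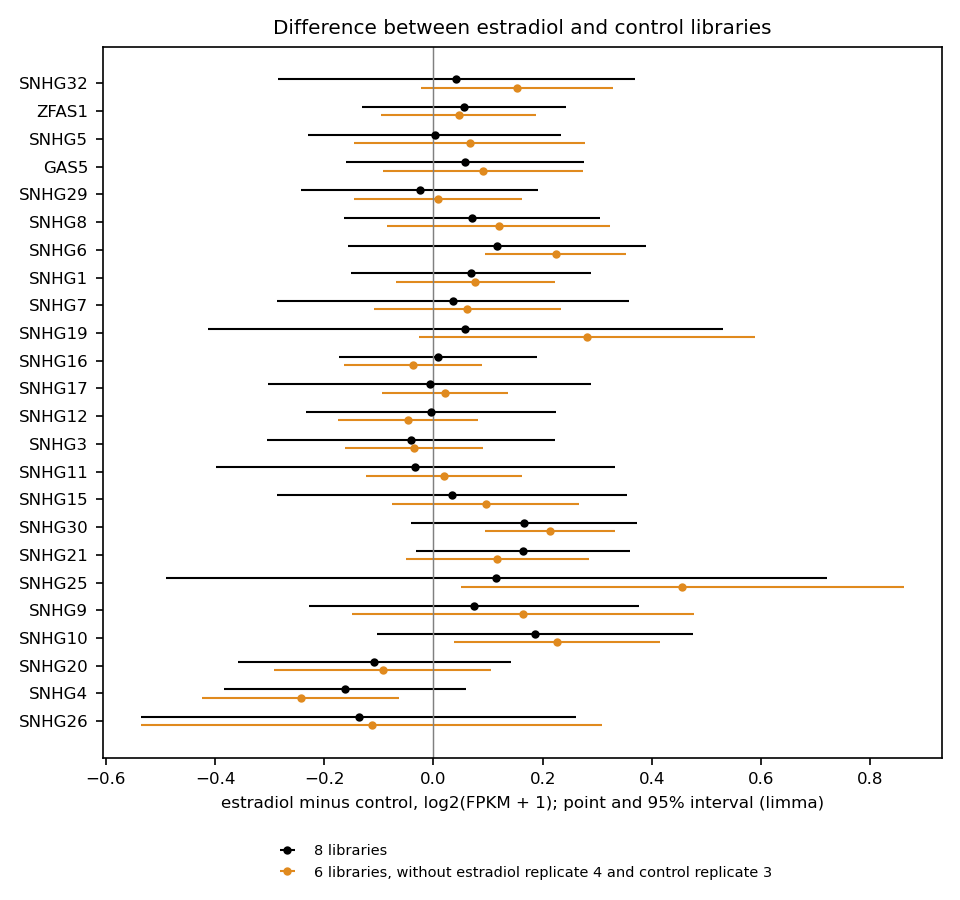
Estradiol minus control difference in log2(FPKM + 1) with its 95% interval (limma) for the 24 tested hosts, from the most abundant at the top, for all 8 libraries (black) and for the 6 left without estradiol replicate 4 and control replicate 3 (orange). All black intervals include 0; the orange intervals of SNHG6, SNHG30, SNHG25, SNHG10 and SNHG4 do not, at no adjustment for the number of genes.

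Among hosts with higher values after estradiol, the smallest unadjusted p belonged to SNHG21, SNHG30 and SNHG10. SNHG21, the host of SCARNA15, measured 5.25, 5.48, 4.49 and 5.14 FPKM in estradiol replicates 1 to 4, against 4.47, 4.45, 3.97 and 4.85 FPKM in control replicates 1 to 4. A single control library, replicate 4, exceeded the lowest estradiol library. The log2 difference was 0.16 ± 0.09 (SE, n = 4 each; limma unadjusted p = 0.0917), and 0.12 ± 0.07 in the 6 libraries.

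SNHG30, the host of SNORD7, measured 10.04, 10.51, 10.25 and 8.28 FPKM in estradiol replicates 1 to 4, against 8.26, 9.03, 8.14 and 8.87 FPKM in control replicates 1 to 4. Estradiol replicates 1, 2 and 3 stood above all controls, and estradiol replicate 4 lay among the controls. In log2 terms it differed by 0.17 ± 0.09 over 8 libraries and 0.21 ± 0.05 over 6 (SE; limma adjusted p = 0.9916 in the 6).

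SNHG10, the host of SCARNA13, measured 3.76, 2.88, 2.99 and 2.12 FPKM in estradiol replicates 1 to 4, against 2.58, 2.58, 1.98 and 2.59 FPKM in control replicates 1 to 4. The lowest library of each group was estradiol replicate 4 and control replicate 3. On the log2 scale the difference was 0.19 ± 0.13 over 8 libraries and 0.23 ± 0.08 over 6 (SE).

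Among hosts with lower values, SNHG4, SNHG20 and SNHG26 had the smallest unadjusted p. SNHG4 measured 1.07, 0.851, 1.13 and 1.53 FPKM in estradiol replicates 1 to 4, against 1.30, 1.498, 1.40 and 1.36 FPKM in control replicates 1 to 4. Estradiol replicate 4 was the highest of all libraries and the other estradiol libraries were the lowest. The log2 difference was -0.16 ± 0.10 over 8 libraries and -0.24 ± 0.08 over 6 (SE; limma adjusted p = 0.9916 in the 6). With a pseudocount of 0.1 the difference of SNHG4 was -0.28, and by limma-voom on the recovered reads -0.30. SNHG4 lies in a span shared with MATR3 on the same strand, so their reads may not be fully separable.

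SNHG20, the host of SCARNA16, measured 2.28, 2.25, 2.28 and 1.68 FPKM in estradiol replicates 1 to 4, against 2.20, 2.32, 1.98 and 2.99 FPKM in control replicates 1 to 4. Control replicate 4 was the highest and estradiol replicate 4 the lowest. SNHG26, the host of SNORD93, measured 1.24, 0.510, 1.03 and 1.28 FPKM in estradiol replicates 1 to 4, against 0.600, 1.48, 1.64 and 1.18 FPKM in control replicates 1 to 4. Both groups held low and high libraries, which differed up to 3.22-fold and rested on 13 to 47 reads. The log2 differences were -0.11 ± 0.11 for SNHG20 and -0.14 ± 0.18 for SNHG26 (SE, n = 4 each), and -0.09 ± 0.09 and -0.11 ± 0.19 in the 6 libraries. SNHG26 stood at -0.24 with a pseudocount of 0.1, after quantile normalization and by limma-voom.

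Leaving out estradiol replicate 4 and control replicate 3 narrowed the spread but gave no call. In the 6 libraries, 18 of 24 hosts had a log2 fold change above 0 (48.1% of all genes tested), with a median of 0.07. Control replicate 1, where 21 of 24 hosts were below their 8-library median, is 1 of the 3 controls in that fit and weighs on it. Over 8 libraries, leaving it out took the host median from 0.04 to 0.00443. The 6 libraries were not fitted without it. At an unadjusted p under 0.05 by limma there were 5 of 24 hosts, against 3.88% of all genes tested, and the lowest adjusted p of a host was 0.9916. SNHG6, SNHG30, SNHG25 and SNHG10 were higher, against 1.9% of all genes, and SNHG4 was lower, against 1.98%. SNHG6, the host of SNORD87, averaged 46.2 ± 2.76 FPKM with estradiol and 39.4 ± 1.52 FPKM in control over these libraries (SD, n = 3 each), a log2 difference of 0.22 ± 0.06 (SE). Over all 8 libraries it averaged 46.5 ± 2.36 and 43.3 ± 7.96 FPKM (SD, n = 4 each, estradiol and control), because control replicate 3 held its highest value, 55.1 FPKM. SNHG10, SNHG30 and SNHG6 had every estradiol library above every control library in the 6 (3 of 24, against 4.6% of all genes tested), and SNHG4 had every one below (1 of 24, against 4.93%).

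By kind of small RNA, no class of hosts was called. Of 12 tested box C/D hosts, 10 had a log2 fold change above 0, with a median of 0.06 and levels of 1.12 to 300.4 FPKM. Of 9 tested box H/ACA hosts, 4 were above 0, with a median of -0.00456 and levels of 1.27 to 67.3 FPKM. The 3 tested scaRNA hosts, SNHG21, SNHG10 and SNHG20, stood at 2.25 to 4.76 FPKM, with 2 above 0. In the 6 libraries the medians were 0.08, 0.02 and 0.12. The difference between classes was not tested.

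Libraries of the same group differed in how many hosts were high. Estradiol replicate 1 had 18 of 24 hosts above their 8-library median, replicate 2 had 15, replicate 3 had 16 and replicate 4 had 6. Control replicate 1 had 3 above, replicate 2 had 13, replicate 3 had 7 and replicate 4 had 18. Over all genes tested, between 44.2% and 57.5% were above their median in a library. In control replicate 1 that share was 52.5%, while 21 of 24 hosts were below.

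Control replicate 1 was the lowest library for 5 of 24 hosts (12.9% of all genes tested) and the highest for 0 (18.5%). The 5 were SNHG5, GAS5, SNHG8, SNHG6 and SNHG1, chosen here after their values were seen. SNHG8, the host of SNORA24, stood at 58.5 FPKM there, against 61.4 to 78.6 FPKM in estradiol libraries and 64.8 to 73.2 FPKM in the other control libraries. The median host deviated by -0.06 in log2(FPKM + 1) in that library, with 0.00474 for all genes tested. Protein-coding snoRNA hosts, mostly genes of ribosomal proteins and translation factors, were also low there: 27 of 32 tested were below their median, with a median deviation of -0.07. Of 17 genes for snoRNP proteins and assembly factors, such as FBL and DKC1, 8 were below in the same library.

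**Figure D3:**
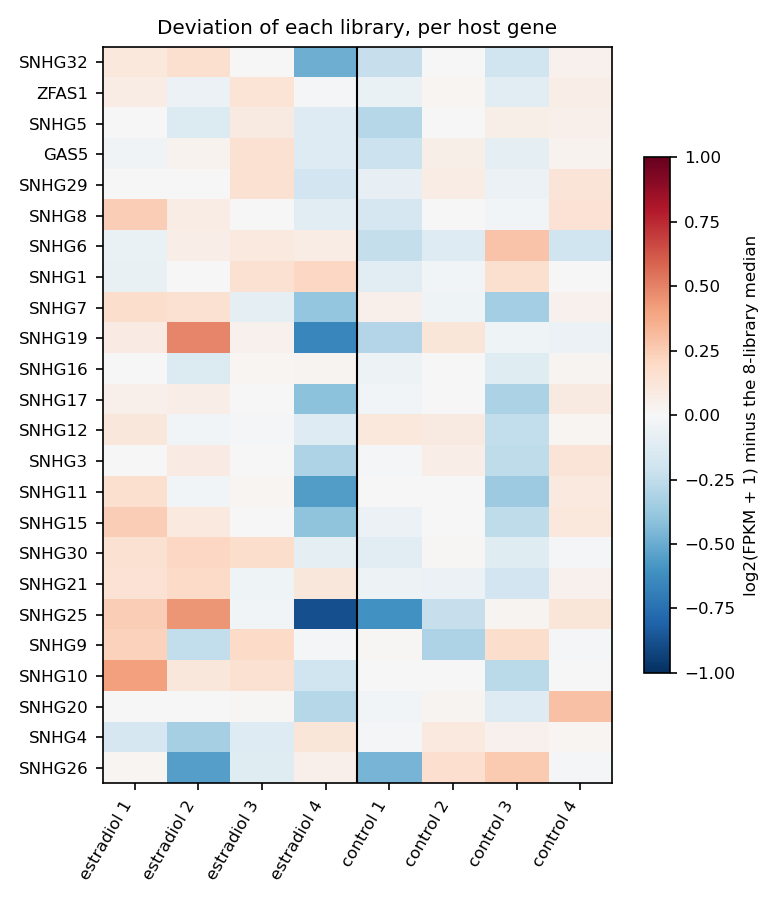
Deviation of each library (columns, estradiol left of the line and control right) from the 8-library median of log2(FPKM + 1), for the 24 tested hosts from the most abundant at the top; red is higher and blue lower. Estradiol replicate 4 and control replicates 1 and 3 are mostly blue, with 18, 21 and 17 of 24 hosts below their median.

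Estradiol replicate 4 and control replicate 3 were low for many hosts, though not for all. They were the lowest pair no more often for hosts than over all genes tested. They were the lowest pair of the 8 libraries for 8 of 24 hosts (43.9% of all genes tested): SNHG10, SNHG11, SNHG12, SNHG15, SNHG17, SNHG20, SNHG3 and SNHG7. They were the highest pair for 1, SNHG1 (34.6% of all genes tested). SNHG11, the host of SNORA60 and SNORA71E, showed the widest gap: it measured 7.31 and 8.48 FPKM in estradiol replicate 4 and control replicate 3, against 11.01 to 12.7 FPKM in the other estradiol and 11.2 to 12.1 FPKM in the other control libraries. SNHG7, the host of SNORA17A and SNORA17B, measured 19.4 and 20.1 FPKM in these libraries, against 24.0 to 29.1 FPKM in the other estradiol and 24.9 to 26.6 FPKM in the other control libraries. Of the 8 hosts, 6 are box H/ACA hosts and 2 are scaRNA hosts; 0 of 12 box C/D hosts belonged to them. By size, however, some box C/D hosts were as low: the mean of the 2 libraries minus that of the other 6 was -0.42 for SNHG25, -0.41 for SNHG19 and -0.36 for SNHG32 in log2(FPKM + 1), against -0.41 for SNHG7 and -0.23 for SNHG12. SNHG32 stayed out of the count because control replicate 1, at 268 FPKM, was below control replicate 3, at 273 FPKM. For SNHG19, control replicates 1 and 4 (18.8 and 22.4 FPKM) were below control replicate 3 (22.6 FPKM). SNHG25 in control replicate 3 stood at 4.80 FPKM, above control replicates 1 and 2 and estradiol replicate 3. Its low mean came from estradiol replicate 4, at 2.09 FPKM.

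The GC content of the hosts moved with that pattern. Box H/ACA hosts had a median GC of 54.4% and box C/D hosts 45.1%. Over the 24 tested hosts, the mean of the 2 libraries minus that of the other 6 had a Spearman correlation of -0.65 with GC content, and -0.88 over all genes tested with a GC value; genes are not independent and all points share the same libraries. Of 12 hosts with at least 50% GC, 10 were lower in the pair, and of 12 below 50%, 8 were lower. SNHG9, the richest in GC at 64.5%, was 0.10 higher, from 18 to 33 reads per library. The part of GC content in these differences was not tested.

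**Figure D4:**
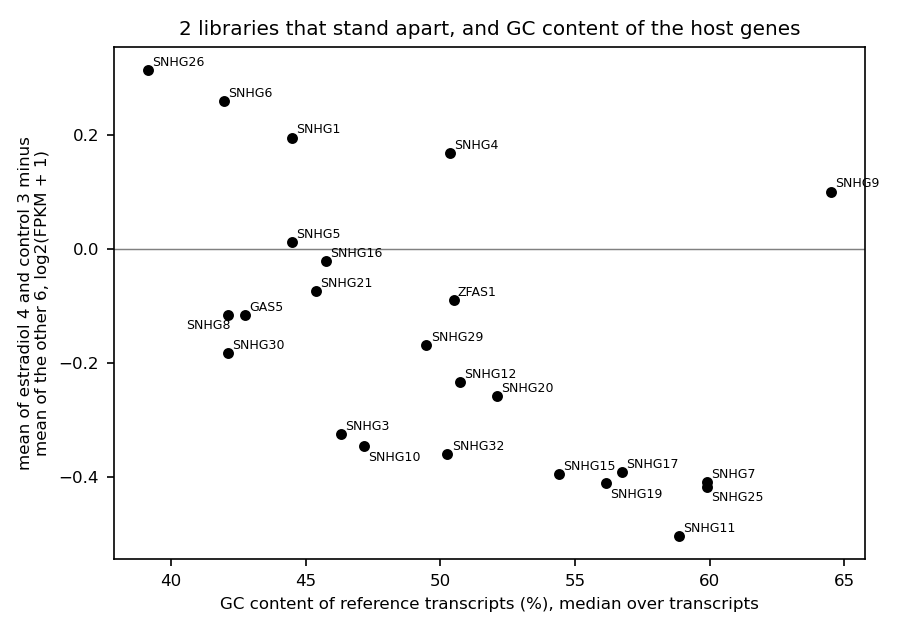
Mean log2(FPKM + 1) of estradiol replicate 4 and control replicate 3 minus the mean of the other 6 libraries (vertical) against the GC content of the GENCODE v29 reference transcripts (horizontal, in percent) for the 24 tested hosts. SNHG7, SNHG25, SNHG11, SNHG17, SNHG19 and SNHG15, the richest in GC after SNHG9, lie between -0.50 and -0.39, and SNHG26, SNHG6 and SNHG1 are the highest.

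The rarest tested hosts rested on few reads. SNHG25, SNHG9, SNHG26 and SNHG4 had under 100 reads in every library, and the spread within groups was 1.71, 1.01, 2.32 and 1.497 times the counting error for these hosts in that order. SNHG25, the host of SNORD104, rested on 9 to 25 reads over a length of 111 bases as the deposited values imply, and measured 5.74, 6.74, 4.58 and 2.09 FPKM in estradiol replicates 1 to 4, against 2.75, 3.85, 4.80 and 5.19 FPKM in control replicates 1 to 4. The lowest and highest both belonged to the estradiol group. SNHG29, with 14063 to 18313 reads, had a spread 10.7 times its counting error. The spread within groups was more than 2 times the counting error for 19 of 24 hosts over 8 libraries and for 11 of 24 over 6. The median within-group SD of log2(FPKM + 1) was 0.17 for the hosts and 0.19 for all genes tested, and 0.10 and 0.08 in the 6 libraries.

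The other 13 tested hosts kept to the same pattern of overlap. SNHG8, SNHG7, SNHG17, SNHG12, SNHG3, SNHG11, SNHG15 and SNHG9 are box H/ACA hosts, among them SNHG3, which carries the U17 snoRNAs SNORA73A and SNORA73B. SNHG6, SNHG1, SNHG19, SNHG16 and SNHG25 are box C/D hosts. Their log2 fold changes lay between -0.04 for SNHG3 and 0.12 for SNHG6, with standard errors between 0.08 for SNHG16 and 0.27 for SNHG25. SNHG16, the host of SNORD1A, SNORD1B and SNORD1C, varied least, with 22.4 ± 1.23 FPKM in estradiol and 22.3 ± 1.04 FPKM in control libraries (SD, n = 4 each). SNHG19, the host of SNORD60, was highest at 33.2 FPKM in estradiol replicate 2 and lowest at 14.4 FPKM in estradiol replicate 4, with control libraries between 18.8 and 25.5 FPKM.

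Of the 6 hosts under 1 FPKM, the 5 with any read were compared by an exact two-sided permutation test over 70 relabellings, whose smallest p is 0.0286. SNHG14 averaged 0.753 ± 0.0354 FPKM with estradiol and 0.756 ± 0.10 FPKM in control (SD, n = 4 each). Its exact permutation p was 0.971, and 461 to 617 reads fell on 19263 bases. It overlaps UBE3A on the opposite strand and SNRPN and SNURF on its own. SNHG28 measured 0.439 ± 0.105 and 0.482 ± 0.190 FPKM (SD, n = 4 each, estradiol and control), with an exact permutation p of 0.743 and 28 to 67 reads.

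SNHG31 and SNHG22 had 1 to 8 reads per library. SNHG31 totalled 19 reads in estradiol and 11 in control libraries (exact permutation p = 0.229), and SNHG22, the host of SCARNA17, totalled 6 and 13 (exact permutation p = 0.457). Leaving out estradiol replicate 3 took the exact permutation p of SNHG31 to 0.0286, the smallest that test can give. After adjustment over the 12751 genes under the filter that were above 0, the exact permutation p-values from all 8 libraries were 1. The p of 0.0286 without estradiol replicate 3 was not adjusted. SNHG18 had 1 read in control replicate 3 and was listed at 0 elsewhere, and SNHG27 was listed at 0 in every library. EIF4A1, a translation initiation helicase and snoRNA host that cells in general use, was also listed at 0 in all 8 libraries, so a value of 0 was not read as absence.

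Overlap with other genes limits some levels. On the same strand, SNHG20 shares its span with SEC14L1, SNHG3 with RCC1, SNHG7 with LOC124900276 and SNHG28 with VSIG8. The span of 10 hosts overlaps a protein-coding gene on the opposite strand, among them GAS5 with ZBTB37, SNHG29 with LRRC75A, SNHG12 with TRNAU1AP, SNHG7 with DIPK1B, SNHG6 with MCMDC2 and SNHG21 with FSD2. No source used here says whether counting took account of strand, so reads of such partners cannot be told apart from those of the host where exons overlap. Nor is it known whether reads on shared exons were left out of the counts, which would make the printed levels of such hosts too low; this was not tested.

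The genes that serve the hosts' pathway gave no calls either. Of 32 tested protein-coding snoRNA hosts, 0 were higher and 0 lower by limma, with a median log2 fold change of 0.03 and 24 above 0. DKC1, the pseudouridine synthase of box H/ACA particles and itself a host, averaged 15.6 ± 0.358 FPKM with estradiol and 14.7 ± 0.970 FPKM in control (SD, n = 4 each). Of 17 snoRNP genes 0 were called, with a median of -0.000110 and 8 above 0. RUVBL1, an ATPase of snoRNP assembly, averaged 12.8 ± 4.61 FPKM with estradiol and 10.8 ± 0.441 FPKM in control (SD, n = 4 each), and its highest library, of the estradiol group, stood at 19.4 FPKM.

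Of 16 nonsense-mediated decay factors 0 were called, with a median of 0.03 and 11 above 0. SMG8, a regulator of the decay kinase SMG1, had a log2 fold change of 0.08 ± 0.08, and EIF4A3, a core component of the exon junction complex, one of -0.07 ± 0.12 (SE, n = 4 each). Of 13 genes for the mTORC1 pathway and binders of oligopyrimidine-tract mRNAs 0 were called, with a median of -0.00358 and 6 above 0. RHEB, the small GTPase that activates mTORC1, averaged 48.5 ± 4.96 FPKM with estradiol and 46.0 ± 5.75 FPKM in control (SD, n = 4 each).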

How the data were processed

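Total RNA of 8 TeloHAEC samples was sequenced, and the authors deposited FPKM values per gene symbol and library. Per the submitters' processing notes, fastp 0.20.1 and HTSeq were used; the aligner, build, annotation and strand setting were not given in the sources used here. All 8 columns were used. Whole reads were recovered from the steps of the FPKM values: 152348 of 152348 values above 0 (100%) were rebuilt within a relative tolerance of 1e-06, and the steps gave a whole transcript length (within 0.01 bases) for 99.5% of genes. The recovered depth counts only reads assigned to genes.

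Limma 3.58.1 in R 4.3.3 was fitted with a mean-variance trend, two-sided, on log2(FPKM + 1) of all 10720 genes with a mean of at least 1 FPKM, with Benjamini-Hochberg adjustment over all of them. Such fold changes understate those of low genes. Genes under the filter had exact permutation tests, adjusted over all such genes and not over the host genes alone as first planned. Read recovery and the limma fit were tested on simulated data. GC content is the median over GENCODE v29 transcripts, and promoters and neighbours are from RefSeq. Hosts and lists were chosen with earlier results of these data known. Values in every library are given for the 5 most abundant hosts and for the 3 with the smallest p in each direction; of each list up to 2 genes with the smallest p are named. Python 3.11.15 with numpy 2.4.6 and pandas 2.3.3 was used otherwise. Alternatives were another pseudocount, filter or scaling, no mean-variance trend, a replicate block, limma-voom on the recovered reads, each library left out, and removal of the GC trend.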

Additional observations from a re-analysis of the deposited data

Results flagged for a closer look

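In 57 groups of 4 libraries, 4 held a library far from the other 3. Chance flags about 1 group in 20, so 4 of 57 is near what chance gives. SNHG17, a box H/ACA host, measured 12.4 FPKM in estradiol replicate 4, against 16.8 to 17.6 FPKM in the other estradiol libraries. SNHG20 measured 1.68 FPKM in estradiol replicate 4, against 2.25 to 2.28 FPKM in the others. SNHG10 measured 1.98 FPKM in control replicate 3, against 2.58 to 2.59 FPKM in the others. SNHG18 measured 0.0179 FPKM in control replicate 3, from 1 read, and was listed at 0 in the others. With a single library above 0, that flag was fixed in advance. All 4 lie in estradiol replicate 4 or control replicate 3.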

How the results depend on the processing

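The count of called genes was 0, and that of called hosts 0, under each of the 19 alternatives run. Over all genes, 4 (of 7221, filter at 5 FPKM) to 437 (of 23471, no filter) had an unadjusted p under 0.05. Without estradiol replicate 4, 3 of 24 hosts did (84 of 10720 genes). Without control replicate 3 it was 1 host (183 genes), and without both 5 hosts (416 genes). In each other alternative it was 0 hosts. The median log2 fold change of the hosts stayed within 1 SD between replicates of 0.04 and ran from -0.00466 to 0.10 with 1 library left out. It was 0.07 without both libraries that stand apart and 0.04 with the GC trend removed, an alternative chosen after seeing the data. SNHG10, SNHG21, SNHG30, SNHG6, SNHG1, SNHG8, GAS5 and ZFAS1 stayed above 0 and SNHG4, SNHG20 and SNHG26 below 0 in every alternative that tested them; the other 13 changed sign in at least 1. The log2 difference of SNHG31 was 0.03 (exact permutation p = 0.229) and 0.0190 to 0.0505 with 1 library left out, and 0.0155 without both libraries that stand apart (all added after seeing the data); without estradiol replicate 3, at 0.0505, it reached the smallest exact permutation p of 0.0286. Deviations of same-numbered libraries from their group means correlated at 0.616, 0.073, -0.478 and -0.737 for numbers 1 to 4, over all genes tested. Estradiol replicate 4 and control replicate 3, which stand apart, correlated at 0.791 and weigh on these values. The correlations therefore cannot show whether the numbers pair the libraries, and the main fit took them as unpaired. With the replicate block, 11 genes and 0 hosts had an unadjusted p under 0.05, 0 were called, and the host median was 0.04.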

Other observations

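Non-coding hosts under other names were also compared. DANCR, the host of SNORA26, averaged 14.6 ± 1.60 FPKM in estradiol and 14.9 ± 0.850 FPKM in control libraries, and EPB41L4A-AS1, the host of SNORA13, 31.1 ± 4.49 and 29.4 ± 4.15 FPKM (SD, n = 4 each). Neither passed the limma test, at log2 fold changes of -0.04 ± 0.10 and 0.08 ± 0.14 (SE). MEG8 stayed under the filter at 0.0708 ± 0.0164 FPKM in estradiol and 0.103 ± 0.0403 FPKM in control libraries (SD, n = 4 each).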
